A study of Rattus norvegicus with 9 samples.

Results

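The genes described here are a set of cholesterol synthesis genes whose transcription SREBP2 drives: Hmgcs1, Idi1, Fdps, Fdft1, Sqle, Cyp51, Msmo1 and Insig1. They were found by gene symbol in the platform annotation. Of the 8 genes, 7 were found, with 10 of the 31042 non-control probe sets, among 14217 named genes in all; Hmgcs1 was not analysed here. A probe set is a group of short probes read as 1 value for a transcript. All 10 probe sets passed the filter on dim probe sets.

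The RNA was islet RNA from male ZDF (Zucker Diabetic Fatty) rats that were fa/fa, the homozygous leptin receptor defect that makes the strain obese and diabetic, and every group carried it, so the series has no lean control. All rats ate Purina 5008, a diet used to bring on diabetes in the strain. The treated group was given rosiglitazone, a drug that activates PPAR gamma, in the diet at 3 mg/kg from week 5 to week 9 and was sampled at 9 weeks of age. The withdrawal group had the drug over the same weeks and was sampled at 11 weeks, 2 weeks after it was stopped. The untreated group, at 13 weeks, had no drug. There were 3 arrays a group, labelled as biological replicates, out of 24 randomised animals. The labels did not say whether an array held islets of 1 rat or of several, so p-values measure only the spread between these samples. No 2 groups were of 1 age, so drug and age cannot be told apart. In whole islets, fewer cells of a type and less RNA per cell also cannot be told apart.

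Cholesterol is built from acetyl-CoA through mevalonate, the isoprenoid diphosphates, squalene and lanosterol. When sterols in the endoplasmic reticulum are low, the carrier SCAP takes the membrane-bound factor SREBP2 to the Golgi apparatus, where proteases release it, and it then raises transcription of the enzymes of the pathway. Insig1 holds SCAP back when sterols are plentiful and is itself a target, which makes it both a brake and a readout. The factor usually binds a sterol regulatory element beside sites for NF-Y and Sp1, and in beta cells cholesterol content is known to bear on insulin granules and secretion.

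The promoters are shown because all these genes are regarded as targets of 1 factor and their levels moved together over the arrays. Entries were matched by symbol for 5 of the 7 genes in RefSeq (GRCr8), and Fdft1 and Sqle are named only. The stretches for Fdps (chr2:176804817-176805066, minus strand), Cyp51 (chr4:30991443-30991692, plus strand) and Msmo1 (chr16:29746863-29747112, plus strand) are the 250 bases before the annotated start, and those for Idi1 (chr17:66547574-66547603, minus strand) and Insig1 (chr4:8057946-8057975, minus strand) are 30 bases around an NF-Y box, because these windows also lie within another annotated gene. Capitals mark matches, on either strand, to an NF-Y box (CCAAT, or ATTGG on the other strand), an Sp1 box (GGGCGG, or CCGCCC) and the sterol element forms TCACNCCA and TCACACGAG.
Idi1: ttgcctccagctgATTGGtgagcccgggca
Fdps: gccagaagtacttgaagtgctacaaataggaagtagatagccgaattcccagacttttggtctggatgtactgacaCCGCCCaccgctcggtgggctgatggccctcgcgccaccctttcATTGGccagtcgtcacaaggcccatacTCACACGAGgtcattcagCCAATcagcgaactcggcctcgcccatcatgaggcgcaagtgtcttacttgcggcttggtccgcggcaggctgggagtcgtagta
Cyp51: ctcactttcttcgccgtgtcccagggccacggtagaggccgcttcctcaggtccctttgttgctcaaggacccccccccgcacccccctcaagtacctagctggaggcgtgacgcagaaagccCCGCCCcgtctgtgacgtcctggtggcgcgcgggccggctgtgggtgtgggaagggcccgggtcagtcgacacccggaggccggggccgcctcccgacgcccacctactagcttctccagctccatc
Msmo1: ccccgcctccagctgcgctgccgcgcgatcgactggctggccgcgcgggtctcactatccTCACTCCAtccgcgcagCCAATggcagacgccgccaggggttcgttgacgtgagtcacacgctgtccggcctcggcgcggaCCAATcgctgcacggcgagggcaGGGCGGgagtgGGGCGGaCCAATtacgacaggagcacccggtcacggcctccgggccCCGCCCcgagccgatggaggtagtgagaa
Insig1: CCGCCCtcctcccATTGGctcccgcggcct

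Over both strands of the 250 bases before the start, 4 of the 5 promoters held CCAAT, which 34% of 33469 rat promoters of the same length held. GGGCGG was in 4 of 5 as well, against 30.5% of all promoters. Msmo1 held the shorter sterol element TCACNCCA, 190 to 183 bases before its start, with a CCAAT at 173 to 169; this form was in 3.24% of all promoters. TCACACGAG, a form known from the Fdps promoter, stood 103 to 95 bases before the Fdps start, between a CCAAT at 85 to 81 and one on the other strand at 130 to 126, and was in 0.0986% of all promoters; since the form was taken from this gene, its presence there is no finding. The longer TCACNCCAC, which contains the shorter form, was in 0 of 5 and in 0.974% of all promoters. A match is a run of letters in this window and says nothing about binding in these islets.

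As deposited, each of the 7 genes had its lowest group mean in the withdrawal group. Among the 10 probe sets, 9 had their 3 lowest values on the 3 withdrawal arrays, as did 7.22% of all tested probe sets. The treated and untreated arrays overlapped for 9 of the 10, a share that was not counted over all probe sets. Values are log2 expression as deposited, where 1 unit is a doubling of signal, and differences are log2 differences from limma with their standard errors. The arrays differed in spread: within an array, log2 values had an SD of 1.65 to 2.00. The treated arrays averaged 1.89 ± 0.089 (SD, n = 3), the withdrawal arrays 1.68 ± 0.036 and the untreated arrays 1.73 ± 0.061. Treated arrays thus had wider scales, so each result is also given after quantile normalization, which gives all arrays 1 distribution. Control probe sets differed too: the actin signal at the 3′ end minus that at the 5′ end, a sign of RNA quality, was 0.82 ± 0.098 on treated arrays, 0.99 ± 0.059 on withdrawal arrays and 1.04 ± 0.077 on untreated arrays, and the spike-in controls averaged 10.05, 9.22 and 9.48. Their part in the results was not tested. Array brightness, not read depth, and the number of arrays limit the precision.

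**Figure D1:**
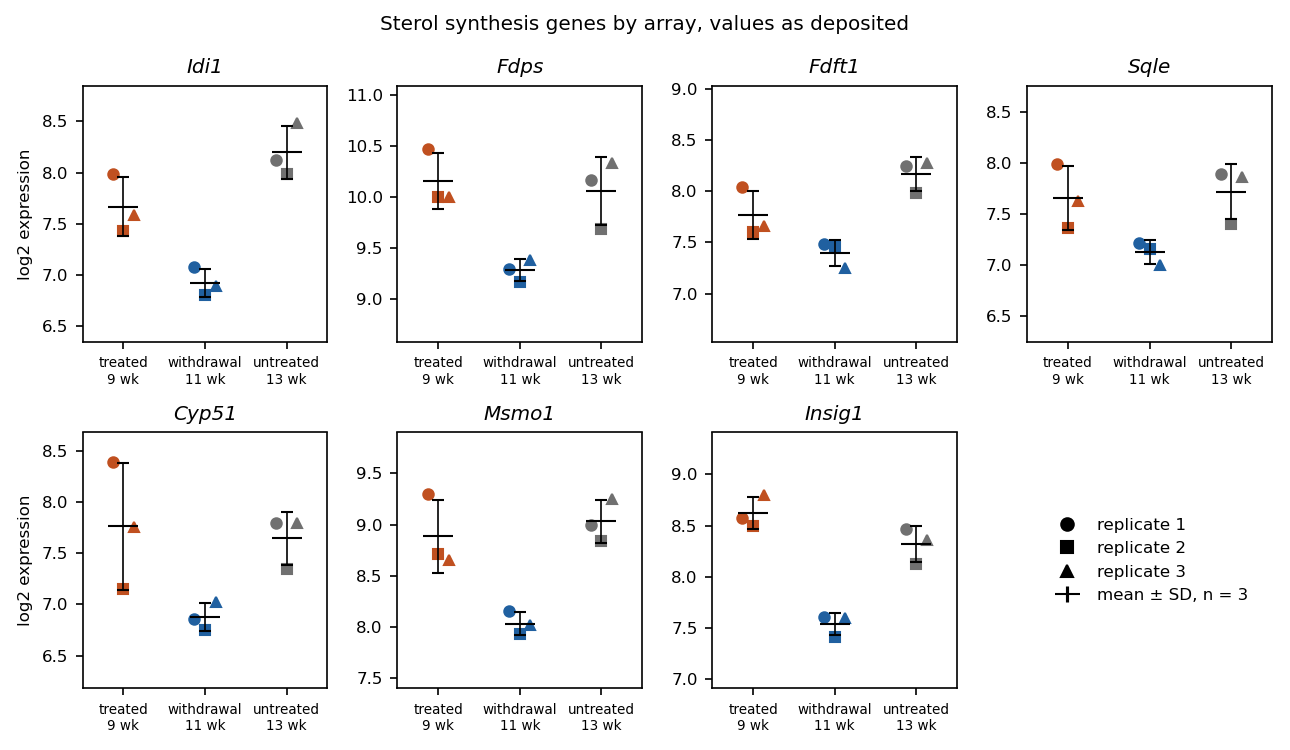
Log2 expression as deposited (vertical axis) of the 7 genes on each of the 9 arrays, by group (horizontal axis, with age in weeks); points are arrays, horizontal lines are means and bars are ± SD (n = 3). All panels span the same height, and in each panel the 3 withdrawal arrays are the lowest 3.

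Idi1, isopentenyl diphosphate isomerase, interconverts the isoprenoid building blocks and differed most of the 7 between withdrawal and untreated arrays. Its brighter probe set read 7.99, 7.43 and 7.59 on the treated arrays, 7.08, 6.81 and 6.89 on the withdrawal arrays and 8.12, 7.98 and 8.49 on the untreated arrays. All withdrawal values lay below all others, and the first treated array reached above the lowest untreated one. The means were 7.67 ± 0.29, 6.92 ± 0.14 and 8.20 ± 0.26 (SD, n = 3). The withdrawal level was 41.4% of the untreated level on the linear scale. The dimmer probe set read 7.94, 7.52 and 7.33, then 6.91, 6.57 and 6.70, then 8.06, 7.70 and 8.08, in the same order of groups and with the withdrawal arrays lowest again.

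Fdps, farnesyl diphosphate synthase, makes the isoprenoid from which squalene and protein prenyl groups come. It read 10.47, 10.00 and 10.00 on treated arrays, 9.30, 9.17 and 9.39 on withdrawal arrays and 10.16, 9.69 and 10.33 on untreated arrays. The withdrawal arrays stood apart below, and the other 2 groups overlapped, with means of 10.16 ± 0.27 for treated and 10.06 ± 0.33 for untreated (SD, n = 3). Fdft1, squalene synthase, takes the first step committed to sterols. It read 8.04, 7.60 and 7.66, then 7.48, 7.46 and 7.25, then 8.25, 7.98 and 8.28. Its withdrawal values were lowest, close under the second treated array, and its untreated values were mostly the highest. A much dimmer Fdft1 probe set read 5.48, 5.89 and 5.55, then 5.51, 5.30 and 5.56, then 5.99, 5.80 and 5.86. Here treated and withdrawal arrays overlapped, and it was the 1 probe set of the 10 without the withdrawal arrays as the lowest 3.

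Sqle, squalene epoxidase, is a rate-limiting enzyme of the later pathway. It read 7.98, 7.36 and 7.62 on treated arrays, 7.22, 7.16 and 6.998 on withdrawal arrays and 7.89, 7.41 and 7.86 on untreated arrays. The withdrawal values ended at 7.22, under the second treated array at 7.36, and the other groups overlapped. Cyp51, the lanosterol demethylase, read 8.39, 7.15 and 7.76, then 6.86, 6.75 and 7.02, then 7.80, 7.35 and 7.79 on its brighter probe set. Its treated arrays were the most scattered of any of the 7 genes in any group (SD 0.62), with the first far above the second. Its other probe set read 7.10, 6.69 and 6.52, then 5.97, 5.81 and 6.32, then 6.75, 6.38 and 6.77, with the withdrawal arrays lowest again.

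Msmo1, the methylsterol monooxygenase that acts after Cyp51, read 9.30, 8.71 and 8.66 on treated arrays, 8.16, 7.93 and 8.01 on withdrawal arrays and 9.00, 8.84 and 9.25 on untreated arrays. Its withdrawal level was 50.1% of the untreated level on the linear scale, and the highest withdrawal array, at 8.16, lay below the lowest other array, at 8.66. Insig1, the sterol-sensing brake, read 8.58, 8.50 and 8.80, then 7.60, 7.41 and 7.59, then 8.47, 8.13 and 8.36. It was the 1 gene of the 7 whose treated values all lay above its untreated values, and these 2 groups overlapped after quantile normalization. How many of all probe sets had such a gap was not counted, and 20.9% were called higher in treated than in untreated arrays. The Insig1 withdrawal values lay far below both groups. Within groups, the first treated array was the highest treated array for 6 of the 7 genes (52.9% of all tested probe sets) and the second untreated array the lowest untreated array for 7 of 7 (53.1%). After quantile normalization these counts were 5 of 7 (37.5%) and 5 of 7 (40.5%).

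The mean over the 7 genes, 1 probe set each, was 8.68, 8.11 and 8.30 on treated arrays, 7.67, 7.53 and 7.59 on withdrawal arrays and 8.53, 8.20 and 8.62 on untreated arrays. The group means were 8.36 ± 0.29, 7.60 ± 0.072 and 8.45 ± 0.22 (SD, n = 3). After quantile normalization they were 8.10 ± 0.12, 7.74 ± 0.091 and 8.54 ± 0.11, so that treated arrays then lay between the other groups. The SD of a gene over 3 arrays had a median of 0.29 in the treated, 0.12 in the withdrawal and 0.26 in the untreated group.

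The moderated F test of limma over the 3 groups passed an adjusted p of 0.05 for 7 of the 7 genes, where 37.0% of the 20695 tested probe sets passed it. The adjusted p ran from 0.0011 for Insig1 to 0.035 for Sqle. The withdrawal arrays were the lowest 3 of 9 for 7 of the 7 genes, against 7.22% of all tested probe sets. After quantile normalization that held for 5 of the 7 genes, all but Fdft1 and Sqle, against 6.01% of probe sets.

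Withdrawal against untreated asks how islets after the drug was stopped compare with older islets that never had it. Idi1 fell by 1.27 ± 0.17 (SE; limma adjusted p = 0.0135), and was the 1 of the 7 genes past the threshold, against 0.155% of tested probe sets called lower. The differences of the other 6 ran from −0.998 for Msmo1 to −0.59 for Sqle, and that of Insig1 was −0.78 ± 0.14 (adjusted p = 0.0535). The 7 had a median of −0.78, where the median over all tested probe sets was −0.02. The groups did not overlap for 7 of the 7 genes and for 10 of their 10 probe sets, all lower, against 10.3% of probe sets. Of the 20695 tested probe sets, 17 had a difference as low as that of Idi1, 37 as low as that of Msmo1 and 218 as low as that of Sqle, the least changed of the 7.

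The size of these differences moved little with the scaling, and the number called did. After quantile normalization 5 of the 7 fell, against 0.387% of probe sets: Idi1 (−1.28, adjusted p = 0.00158), Msmo1 (−0.93, adjusted p = 0.00455), Insig1 (−0.74, adjusted p = 0.0279), Fdft1 (−0.73, adjusted p = 0.0158) and Fdps (−0.59, adjusted p = 0.0245). Cyp51 differed by −0.76 (adjusted p = 0.150) and Sqle by −0.55 (adjusted p = 0.142). The dimmer Idi1 probe set gave −1.22 as deposited (adjusted p = 0.0191). Those of Fdft1 and Cyp51 gave −0.42 (adjusted p = 0.467) and −0.60 (adjusted p = 0.410). A fit of only these 6 arrays called 7 of 7 lower, and there 1.56% of probe sets were lower. With the first treated array left out, 7 were called, against 1.42% of probe sets lower, and with the second, 3, against 0.198%. Without any 1 of the 3 withdrawal arrays, or the first or the third untreated array, 0 were called, against 0.0338% to 0.0532% of probe sets. The median of the 7 stayed between −0.92 and −0.72.

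**Figure D2:**
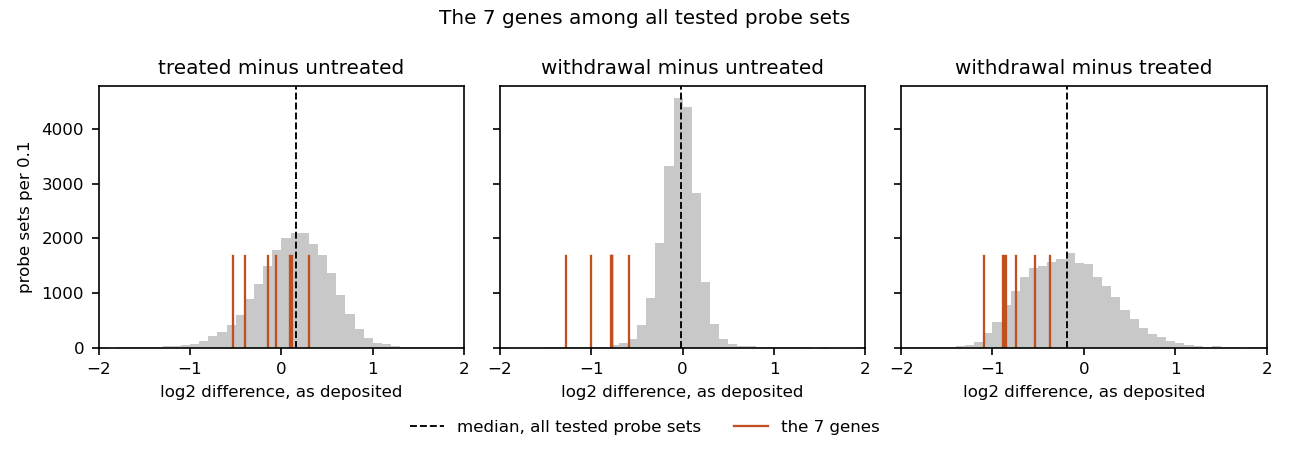
Number of tested probe sets per 0.1 of log2 difference (vertical axis) against the log2 difference as deposited (horizontal axis) for each comparison; orange lines are the 7 genes and the dashed line is the median of all 20695 probe sets. In withdrawal minus untreated the 7 lie between −1.27 and −0.59, in the low tail of a narrow distribution. The other comparisons have wider distributions, and there Insig1 in withdrawal minus treated (−1.09) lies furthest out in the low tail, with 229 of the 20695 probe sets as low.

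Withdrawal against treated compares islets after the stop with islets on the drug. Of the 7 genes, 6 fell, against 32.6% of tested probe sets lower and 11.2% higher. Insig1 fell most, by 1.09 ± 0.14 (SE; adjusted p = 0.000732), to 47.0% of the treated level on the linear scale. Cyp51 fell by 0.89 ± 0.25 (adjusted p = 0.0148), Fdps by 0.87 ± 0.18 (adjusted p = 0.00354), Msmo1 by 0.85 ± 0.18 (adjusted p = 0.00349), Idi1 by 0.74 ± 0.17 (adjusted p = 0.00578) and Sqle by 0.53 ± 0.18 (adjusted p = 0.0308). Fdft1 differed by −0.37 ± 0.15 (adjusted p = 0.0599). The groups did not overlap for 9 of 10 probe sets, all lower, against 39.0% of probe sets.

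The median of the 7 was −0.85, where that of all tested probe sets was −0.19. This comparison depended on the scaling. After quantile normalization 4 of the 7 fell, against 14.6% of probe sets, with a median of −0.34: Insig1 (−0.67, adjusted p = 0.00447), Cyp51 (−0.61, adjusted p = 0.0353), Idi1 (−0.48, adjusted p = 0.0223) and Msmo1 (−0.34, adjusted p = 0.0496). Fdps then differed by −0.13 (adjusted p = 0.313), Sqle by −0.24 (adjusted p = 0.200) and Fdft1 by −0.04 (adjusted p = 0.796). After cyclic loess, another scaling, Insig1 alone of the 7 was called by its brightest probe set (−0.59, adjusted p = 0.0109), against 12.7% of probe sets lower. The dimmer probe sets of Idi1 (−0.54, adjusted p = 0.0138) and Cyp51 (−0.63, adjusted p = 0.0160) also passed after cyclic loess. That of Fdft1 did not (−0.22, adjusted p = 0.219). The Sqle call was also lost without the first or the third treated array or any 1 of the withdrawal arrays, the Cyp51 call without the second withdrawal array, and Fdft1 was called without the second treated array (−0.45).

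Treated against untreated compares islets on the drug at 9 weeks with untreated islets at 13 weeks. Idi1 fell by 0.53 ± 0.17 (SE; adjusted p = 0.0400), as did 7.24% of tested probe sets, and 0 of the 7 rose, as did 20.9%; at an unadjusted p under 0.05, 3 of the 7 passed, as did 42.4% of probe sets in either direction. The Idi1 call was lost in 8 of the 9 fits that left out 1 array, all but the one without the first treated array. The dimmer Idi1 probe set did not pass as deposited (−0.35, adjusted p = 0.150) and passed after quantile normalization (−0.61, adjusted p = 0.0112). Fdft1 differed by −0.40 ± 0.15 (adjusted p = 0.0624), and Msmo1, Sqle, Fdps and Cyp51 by between −0.14 and 0.12. Insig1 differed by 0.31 ± 0.14 (adjusted p = 0.108). The median of the 7 was −0.06, where all tested probe sets had a median of 0.16.

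After quantile normalization 4 of the 7 fell between untreated and treated arrays, against 9.44% of probe sets. Idi1 fell by 0.81 (adjusted p = 0.00413), Fdft1 by 0.69 (adjusted p = 0.00387), Msmo1 by 0.60 (adjusted p = 0.00848) and Fdps by 0.46 (adjusted p = 0.0117). For these 4 the treated values of the brightest probe set then all lay below the untreated ones. How many of all probe sets did so was not counted. The dimmer Fdft1 probe set overlapped between these groups and did not pass (−0.21, adjusted p = 0.257). Insig1 (−0.08, adjusted p = 0.699), Cyp51 (−0.15, adjusted p = 0.614) and Sqle (−0.31, adjusted p = 0.132) did not pass. The sign for Fdps, Cyp51 and Insig1, each by its brightest probe set, thus turned with the scaling. For Fdps and Cyp51 it also turned without the first treated or the second untreated array. For Sqle it turned without the second treated or the first or the third untreated array. The dimmer Cyp51 probe set stayed positive, at 0.14 as deposited, 0.02 after quantile normalization and 0.04 after cyclic loess.

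**Figure D3:**
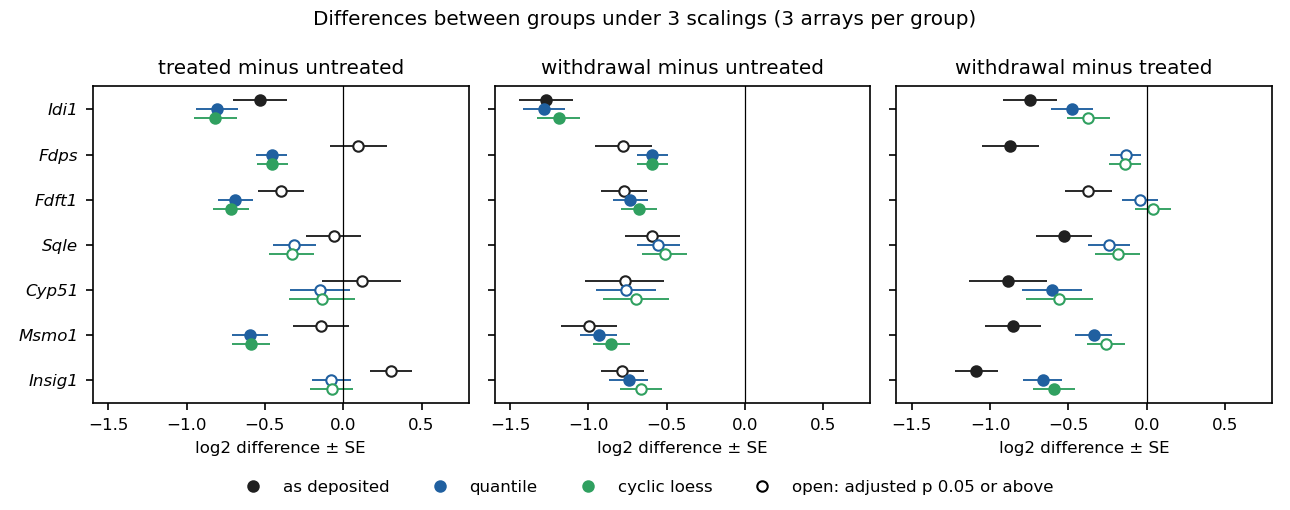
Log2 difference ± SE (horizontal axis) of the 7 genes (vertical axis) in the 3 comparisons, as deposited, after quantile and after cyclic loess normalization; filled points passed an adjusted p of 0.05 in limma. In withdrawal minus untreated the 3 scalings gave like sizes, and in the other comparisons they did not.

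**Figure D4:**
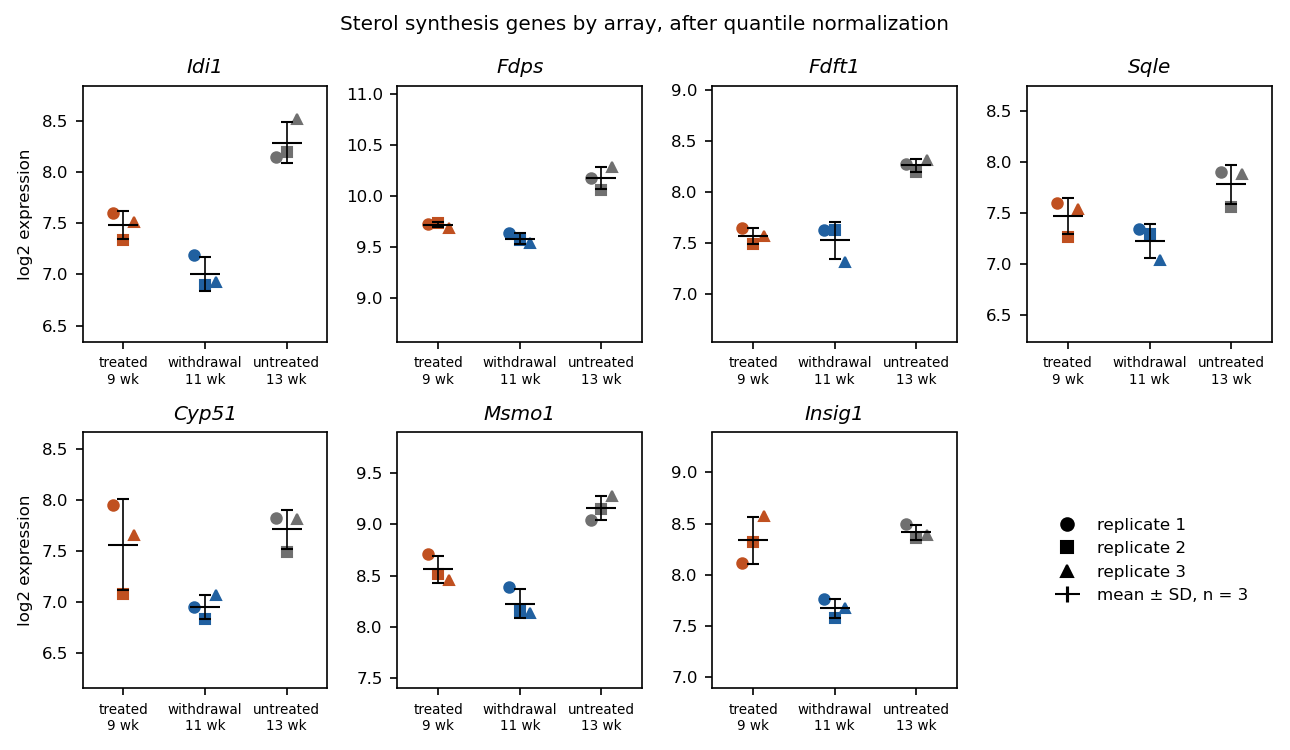
Log2 expression after quantile normalization (vertical axis) of the 7 genes on each of the 9 arrays by group (horizontal axis, with age in weeks); points are arrays, horizontal lines are means and bars are ± SD (n = 3). Treated arrays lie close to the withdrawal arrays for Fdps and Fdft1, and overlap the untreated arrays for Insig1.

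The 2 scalings thus placed the treated group differently for different genes. Fdps read 9.72, 9.74 and 9.69 on treated arrays after quantile normalization, against 9.64, 9.57 and 9.54 on withdrawal arrays and 10.18, 10.06 and 10.28 on untreated arrays. Fdft1 read 7.64, 7.49 and 7.57, then 7.63, 7.63 and 7.32, then 8.28, 8.19 and 8.31, with treated and withdrawal arrays overlapping. Insig1 read 8.12, 8.32 and 8.57, then 7.76, 7.58 and 7.67, then 8.50, 8.36 and 8.39, with treated and untreated arrays overlapping and withdrawal arrays lowest. On that scale the correlation of a gene with the mean of the other 6 over the 9 arrays was 0.98 for Idi1, 0.96 for Msmo1, 0.94 for Fdps, 0.92 for Sqle, 0.87 for Fdft1, 0.77 for Cyp51 and 0.74 for Insig1, as a description of arrays that share their groups.

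The other enzymes of cholesterol synthesis did not move as a block. Of 14 listed, 11 were tested. In limma 0 of the 11 passed between withdrawal and untreated arrays (median −0.12), while Sc5d, Acat2, Mvd and Dhcr7 were lower at an unadjusted p under 0.05, 4 of the 11, as were 5.69% of all tested probe sets. Between treated and untreated arrays 0 passed (median 0.10), with 1 at an unadjusted p under 0.05. Between withdrawal and treated arrays 3 of the 11 fell, as deposited and after quantile normalization, where 32.6% and 14.6% of all probe sets did. They were Acat2, the first thiolase of the pathway, by 0.86, Sc5d, a late sterol desaturase, by 0.84 and Mvd, which makes isopentenyl diphosphate, by 0.66, and the calls for Acat2 and Sc5d were lost without the second withdrawal array. Sc5d read 8.39, 7.80 and 7.43 on treated arrays, 7.17, 6.71 and 7.22 on withdrawal arrays and 8.11, 7.53 and 7.96 on untreated arrays, so its withdrawal arrays were also the lowest 3 (withdrawal minus untreated −0.84, adjusted p = 0.347). A dimmer Sc5d probe set differed there by −0.64 (adjusted p = 0.164) and passed after quantile normalization (−0.64, adjusted p = 0.0237).

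**Figure D5:**
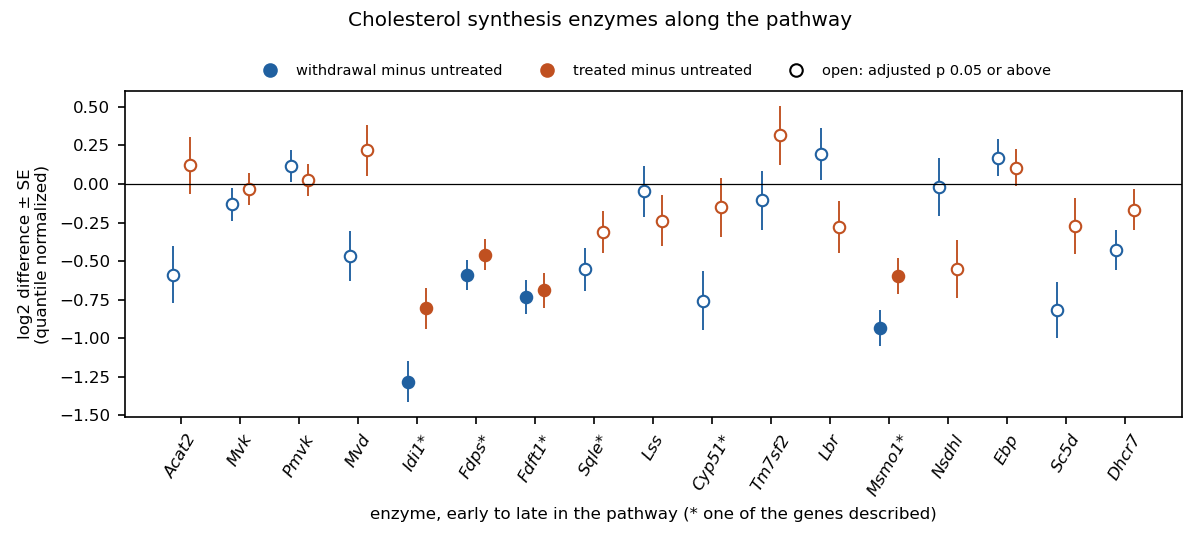
Log2 difference ± SE after quantile normalization (vertical axis) for the 17 tested cholesterol synthesis enzymes in pathway order (horizontal axis), for withdrawal minus untreated and treated minus untreated; stars mark the genes described and filled points passed an adjusted p of 0.05 in limma. The filled points are Idi1, Fdps, Fdft1 and Msmo1, in both comparisons.

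Among the regulators of the pathway, 9 were tested and 0 passed between withdrawal and untreated arrays in limma, and 0 at an unadjusted p under 0.05, each gene by its brightest probe set. Srebf2, which encodes SREBP2, differed there by −0.01 (adjusted p = 0.996), Scap by −0.23 (adjusted p = 0.856) and Insig2, a relative of Insig1, by −0.27 (adjusted p = 0.814). A dimmer Insig2 probe set differed by −0.40 (unadjusted p = 0.0228, adjusted p = 0.571 in limma). It read 7.77, 7.33 and 7.33 on treated arrays, 6.71, 6.86 and 6.90 on withdrawal arrays and 7.24, 7.03 and 7.40 on untreated arrays, with the withdrawal arrays the lowest 3. Srebf2 read 9.55, 9.78 and 9.87 on treated arrays, 10.03, 9.81 and 9.82 on withdrawal arrays and 9.94, 9.79 and 9.97 on untreated arrays, with all groups overlapping as deposited. It differed by −0.16 between treated and untreated arrays as deposited (adjusted p = 0.357) and fell by 0.69 after quantile normalization (adjusted p = 0.0235). Withdrawal minus treated was then 0.88 (adjusted p = 0.0058). A much dimmer Srebf2 probe set (mean 5.10) showed neither change. After quantile normalization its treated minus untreated was 0.14 (adjusted p = 0.579) and its withdrawal minus treated −0.01 (adjusted p = 0.964). Transcript level is not a measure of SREBP2 protein or its cleavage.

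Srebf1, which encodes the lipogenic relative SREBP1, had another pattern than the 7 genes on the brighter of its 2 probe sets. It read 8.22, 8.27 and 8.06 on treated arrays, 7.47, 7.46 and 7.49 on withdrawal arrays and 7.43, 7.42 and 7.50 on untreated arrays. Treated arrays stood apart above the others, and withdrawal and untreated arrays overlapped. Srebf1 was higher by 0.73 ± 0.11 in treated than in untreated arrays (adjusted p = 0.0021; 0.43 and adjusted p = 0.0214 after quantile normalization). The dimmer Srebf1 probe set did not show this: it read 6.20, 6.81 and 6.81 on treated arrays, within which the withdrawal arrays (6.45, 6.41 and 6.34) and the untreated arrays (6.44, 6.42 and 6.54) lay, and treated minus untreated was 0.14 (adjusted p = 0.521). Erlin2, which takes part in sterol-regulated degradation at the endoplasmic reticulum, and the SREBP protease gene Mbtps1 rose there too as deposited, by 0.73 and 0.55, and Mbtps1 did not pass after quantile normalization (0.11, adjusted p = 0.458).

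Other genes that respond to sterols followed neither pattern as a set. Of 10 other listed targets of sterol regulation, 5 were tested and 0 passed between withdrawal and untreated arrays (2 at an unadjusted p under 0.05, both lower, Aacs and Lpin1), each gene by its brightest probe set. A dimmer probe set of Lpin1, which encodes a phosphatidate phosphatase, did pass: it read 6.75, 6.91 and 6.88 on treated arrays, 6.29, 6.23 and 6.37 on withdrawal arrays and 7.11, 6.97 and 7.28 on untreated arrays. Its groups did not overlap, and it fell by 0.82 between untreated and withdrawal arrays (adjusted p = 0.0232; 0.0069 after quantile normalization). Aacs, acetoacetyl-CoA synthetase, fell by 0.93 between treated and withdrawal arrays (0.55 after quantile normalization, adjusted p = 0.0039). Of 8 tested genes of cholesterol efflux and LXR response, 0 passed between withdrawal and untreated arrays, adjusted or not, and Abcg1, a sterol exporter, was higher by 0.80 in treated than in untreated arrays (adjusted p = 0.0029; 0.33 and adjusted p = 0.0589 after quantile normalization). The 2 dimmer Abcg1 probe sets were higher by 0.61 and 0.47 and passed also after quantile normalization (0.51, adjusted p = 0.0188, and 0.44, adjusted p = 0.0442). Of 7 tested genes of cholesterol esters and lysosomal cholesterol and 10 of other isoprenoid branches, 0 passed between withdrawal and untreated arrays, and 1 of each list was lower at an unadjusted p under 0.05.

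Of 14 tested fatty acid synthesis genes, 1 fell between untreated and withdrawal arrays, and their median was −0.31; 6 were lower at an unadjusted p under 0.05. The 1 was Mid1ip1, an activator of acetyl-CoA carboxylase, which fell by 1.32 (adjusted p = 0.0388). It read 10.04, 9.68 and 9.62 on treated arrays, 9.04, 8.90 and 9.45 on withdrawal arrays and 10.83, 10.00 and 10.52 on untreated arrays. Its withdrawal values lay below all others, and its call was lost in 6 of 9 fits that left out 1 array: the third treated, any withdrawal, or the first or the third untreated array. Over all 9 the difference ran from −1.54 to −1.13. Fads1, a fatty acid desaturase, was highest on the treated arrays, like the brighter Srebf1 probe set, with 8.57, 8.07 and 8.14, then 7.48, 7.21 and 7.35, then 7.50, 7.17 and 7.57. The list was split in treated minus untreated arrays: 2 of the 14 were higher and 2 lower as deposited, and 1 and 3 after quantile normalization. As deposited these were Fads1 (0.85) and Fads2 (0.44), and Scd (−0.83) and Mid1ip1 (−0.67). Scd was higher by 0.71 in withdrawal than in treated arrays.

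The genes most like the 7 over the 9 arrays after quantile normalization, out of 11498, were Ipo13 (r = 0.979), Jkamp (0.970), Plekhh3 (0.970), Clptm1l (0.968), Slc39a6 (0.965), Usp14 (0.962), Ugt8 (0.960) and C5h8orf88 (0.959), with r the Pearson correlation with the mean of the standardised values of the 7. The arrays share their groups, so these values are a description. The ranking depended on the scaling: on values as deposited the ranks of the 8, in the same order, were 1, 5, 67, 315, 10, 367, 11 and 382. Of these 8, C5h8orf88 passed between withdrawal and untreated arrays (−1.32, adjusted p = 0.015). Its means were 5.24 on treated arrays, 4.78 on withdrawal arrays and 6.10 on untreated arrays.

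Markers of several cell types differed between the same groups. For them and the lists above, the shares over all tested probe sets were 32.6% lower and 11.2% higher between treated and withdrawal arrays (14.6% and 14.5% after quantile normalization), and, at an unadjusted p under 0.05 between untreated and withdrawal arrays, 5.69% lower and 1.82% higher. In treated against untreated arrays the shares were 7.24% lower and 20.9% higher, and 9.44% lower after quantile normalization. Of 8 beta cell markers, 5 were measured, none below the array median, and the log2 of their summed signal was 13.0 to 13.3 on treated arrays, 12.01 to 12.28 on withdrawal arrays and 12.3 to 12.8 on untreated arrays. All 5 fell between treated and withdrawal arrays, with a median of −1.07 (−0.31 and 3 fell after quantile normalization), and 0 of 5 passed between withdrawal and untreated arrays, with a median of −0.42 and 4 lower at an unadjusted p under 0.05. For 7 islet hormone genes the same medians were −0.76 (4 fell) and −0.07 (0 passed, with 2 lower at an unadjusted p under 0.05). In treated against untreated arrays 4 of the 5 beta cell markers were higher as deposited (median 0.68) and 0 after quantile normalization (median 0.26). Of the 7 hormone genes 3 were higher there under both scalings (medians 0.42 and 0.32). Of 8 macrophage and myeloid markers, 2 lay below the array median, and the sum was 10.6 to 12.7 on treated arrays, 11.8 to 12.2 on withdrawal arrays and 11.4 to 11.8 on untreated arrays; 0 of the 6 tested passed between withdrawal and untreated arrays, with 2 higher at an unadjusted p under 0.05. Of 7 measured lymphocyte markers, 5 lay below the array median, and the sum was 8.09 to 8.28 on treated arrays, 8.69 to 8.92 on withdrawal arrays and 8.57 to 8.85 on untreated arrays; of 6 tested, 4 were lower in treated than in untreated arrays and 4 higher in withdrawal than in treated arrays, under both scalings. Of 8 stellate cell and matrix markers, after quantile normalization 4 were lower in treated than in untreated arrays and 7 higher in withdrawal than in treated arrays, against 1 and 0 as deposited; their sum was 13.02 to 14.34 on treated arrays, 13.76 to 13.98 on withdrawal arrays and 13.38 to 13.97 on untreated arrays. Of 6 endothelial markers, 2 fell between treated and withdrawal arrays as deposited, and after quantile normalization 2 were lower in treated than in untreated arrays; their sum was 11.7 to 12.4, 11.3 to 11.6 and 11.7 to 12.2 in the 3 groups in the same order. Acinar markers (7 measured) summed to between 16.6 and 16.8 in all groups; they lay near the top of the range of the arrays, whose highest values were 14.17 to 14.36, so this sum says little about differences in exocrine RNA. Of them Amy2a3 was higher in treated than in untreated arrays (0.40, adjusted p = 0.047), and did not pass after quantile normalization (0.31, adjusted p = 0.0705). Pnlip went the other way, by −0.33 as deposited (adjusted p = 0.0604) and −0.36 after quantile normalization (adjusted p = 0.0307). Among the other lists, as deposited, 1 of 5 tested duct markers and 1 of 3 liver markers were lower in treated than in untreated arrays. There 1 of 4 adipocyte markers and 2 of 2 erythrocyte markers were higher. The part of all these markers in the results for the sterol genes was not tested.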

How the data were processed

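Values were the authors' deposited log2 expression values per probe set of an Affymetrix rat genome array, taken as log2 from their range. The tools named are RMA and MAS5, per the submitters' processing notes; their roles and versions are not given in the sources used here. Of 31099 probe sets, 57 controls were left out. Symbols came from the platform annotation, updated through RefSeq (GRCr8): 20826 probe sets had 1 symbol, 436 several and 9780 none listed. The lowest 33.3% by mean log2 were left out, and 20695 probe sets were tested with limma 3.58.1 in R 4.3.3 (all 9 arrays, a term per group, no covariate), with Benjamini-Hochberg adjusted p under 0.05 over all of them. A gene was represented by its brightest probe set. The script was tested on simulated data. Promoter motifs were exact matches on both strands. Figures used Python 3.11.15 and matplotlib 3.10.9. The genes and gene lists were chosen with earlier results of these data known. Other genes named were up to 4 per list with the smallest F test p, those that passed a comparison, a short set of regulators (Srebf1, Srebf2, Scap, Insig2) and the 8 most correlated; not all are printed. Alternatives were quantile, cyclic loess and median scaling, other filters, trend and robust eBayes, array weights, only the 6 arrays compared, the replicate block, the mean over probe sets and leaving out each array.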

Additional observations from a re-analysis of the deposited data

How the results depend on the processing

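Every difference between withdrawal and untreated arrays kept its sign for the 7 genes under every alternative run. The number called there was 1, and 5 after quantile normalization, 4 after cyclic loess, 7 with array weights, 7 with only the 6 arrays compared, 3 with the replicate block, 2 with the mean over probe sets, and 0 to 7 with 1 array left out. Over all probe sets that comparison gave 32 lower and 1 higher, 80 and 7 after quantile normalization, 49 and 7 after loess, 322 and 172 with 6 arrays and 2504 and 771 with array weights. With 1 array left out it gave 7 to 293 lower. For treated against untreated, 1 was called, and 4, 4 and 4 under quantile, loess and array weights, 0 with 6 arrays, 2 with the replicate block, 0 with the mean over probe sets and 0 to 2 with 1 array left out. Under quantile and loess the 4 were all lower, as were 9.44% and 10.7% of all probe sets. Under array weights 12.1% were lower, and the 4 included Insig1, which was higher (0.34, limma adjusted p = 0.0402). Fdps was not called there (−0.15, adjusted p = 0.396). The median moved to −0.46 and −0.45 under quantile and loess. For withdrawal against treated, loess left 1 call by the brightest probe sets, while the dimmer Idi1 and Cyp51 probe sets also passed. The median was −0.34 and −0.26 under quantile and loess and −0.94 to −0.58 with 1 array left out.

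Signs turned as follows. Between treated and untreated arrays Fdps went to −0.46 (quantile), −0.45 (loess) and −0.15 (array weights), with −0.0903 to 0.23 over left-out arrays. Cyp51 went to −0.15, −0.14 and −0.07294, with −0.19 to 0.43, on its brighter probe set, while the dimmer one stayed positive under quantile and loess. Insig1 went to −0.0765 and −0.0747 under quantile and loess, and Sqle ran from −0.23 to 0.0868 over left-out arrays. Between withdrawal and treated arrays, quantile and loess gave 0.06915 and 0.0438 for Tmem97, 0.31 and 0.32 for Lpcat3, 0.0362 and 0.0807 for Mid1ip1 and 0.00743 and 0.0602 for Fasn, all negative as deposited, and loess gave 0.0393 for Fdft1. The cause was not tested.

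Whether the replicate numbers pair the samples could not be settled. Deviations of same-numbered arrays correlated at −0.28 to 0.50 over 9 pairs, and those of differently numbered arrays at −0.48 to 0.41 over 18 pairs. These ranges overlap and the pairs are few, so the replicate block is only an alternative. Offsets for linear values were not run, since the values are log2.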
